A study of Mus musculus with 35 samples.

Results

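Cross-linking clusters of SR proteins and NXF1 that lie in introns, within 100 nt of a splice site, are described here. The clusters of the 8 proteins were joined into regions if the gap between them on a strand was 30 nt or less, and a merged region was kept when its midpoint fell in an intron of a protein-coding gene, outside every annotated exon, and no more than 100 nt from an exon edge of the gene's representative transcript. This gave 16400 of 388969 merged regions, or 4.22%. Of these, 10282 lay on the 5′ splice site side, directly downstream of an exon, and 6118 on the 3′ splice site side, directly upstream of the next exon. They occupied 14593 introns of 5859 genes, and 1324 introns had regions on both sides.

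The regions were measured by individual-nucleotide cross-linking and immunoprecipitation (iCLIP), which uses ultraviolet light to attach a protein to the RNA base it touches and reads that base from the place where reverse transcription stopped. The cells were P19, a mouse embryonal carcinoma line, in clonal stable lines that each carried GFP-tagged SRSF1, SRSF2, SRSF3, SRSF4, SRSF5, SRSF6, SRSF7 or NXF1 on a bacterial artificial chromosome, made by drug selection and cell sorting, so that every library reports a tagged protein in a line derived from 1 clone. All libraries used the same anti-GFP pull-down, and GFP with a nuclear localization signal (GFP-NLS) was the control. SRSF3, SRSF4, SRSF6 and NXF1 had 3 libraries each, SRSF1 and SRSF5 4 each, SRSF2 5 and SRSF7 6, which makes 28 SR protein libraries and 31 with NXF1, and the 4 control samples share 1 pooled file that entered no test. The replicates are called biological in the study, but separate cultures are not stated for them, and the p-values then measure only the spread between libraries, which may be technical.

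The first bases of an intron form the 5′ splice site, which the U1 and later the U6 small nuclear RNPs recognize. The last bases hold the branch point, the polypyrimidine tract and the 3′ splice site, which the U2 small nuclear RNP and the U2AF factors recognize. SR proteins bind exons and help both groups of factors to find their sites, and NXF1 is the receptor that takes mature mRNA out of the nucleus. Many introns of housekeeping genes also hold small nucleolar RNAs (snoRNAs), which are cut out of the removed intron and guide chemical changes of other RNAs.

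The sequences shown are of 2 kinds. The first set shows where regions ended directly before a snoRNA. Each sequence has the last 15 intronic bases before the snoRNA in lower case and the first 15 bases of the snoRNA in capitals, on the host gene's strand of mm9.
Chd4, SCARNA11, chr6:125071727-125071756, plus strand: cctcttacaaaaatcTTGTCCTGTGCCTGT
Tcp1, Snora20, chr17:13115641-13115670, plus strand: ttgtaaaaataattcTTTCCCATTAATTTG
Tbrg4, SNORA5, chr11:6519929-6519958, minus strand: ctggccagagacactTGCAGCTGTGTCAAA
Eif4a1, snoU6-77, chr11:69482483-69482512, minus strand: gtttagaactgagttGCTCTGTGATGAACC
Rpl23, Snora21, chr11:97643075-97643104, minus strand: gcgtcctgccaccgtCCCCTTTTAAAAGCA
Rpl5, SNORA66, chr5:108336349-108336378, plus strand: gatttctgtgcacttGAGCAAACTCGATCA

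The second set shows 30 bases each of regions named in the motif or level results. For Wwp2 and Comp they surround the base with the most tags. For Ctage5, an example that decided no result, they surround the middle of the region. Capitals mark CNTC on the RNA strand, where N is any base, a motif held by 31.3% of 30-base windows on the 5′ side and 34.8% on the 3′ side of all introns of at least 200 nt. The Ctage5 region was chosen after values were seen, as the one with the highest mean CPM of SRSF3 among 630 regions that overlapped no exon, rested on SRSF3 clusters alone and had tags in at least 2 SRSF3 libraries.
Wwp2, 3′ side, chr8:110080738-110080767, plus strand: accagagccctggCCTCCTCccggggctac
Comp, 3′ side, chr8:72898676-72898705, plus strand: gcgtggcctaaCTTCtgcgggtccgcagga
Ctage5, 5′ side, chr12:60277478-60277507, plus strand: aaattcCTTCCTTCctttatattttCATCt

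A tag is a unique cDNA at a listed position, and only positions that passed the density threshold of the authors are listed. Libraries held 13038 to 4459523 listed tags, with a median of 237488, and the pooled control held 21880. Of 10 marker genes of pluripotent embryonal carcinoma cells, each had a tag in at least 3 of the 31 libraries, from Zfp42 in 3 to Dnmt3b in 28. Levels are tags scaled to 1000000 listed tags of the library (CPM), and the Nxf1 gene had 1472 to 2985 CPM in the NXF1 libraries, whereas no SR library exceeded 162. The libraries labelled SRSF2 replicates 2 and 5 carry another protein's name in their file headers, SRSF1, and held 2605 and 2311 CPM on Srsf5, more than any other library outside SRSF5. SRSF5 replicates 1 to 4 had 216, 898, 396 and 3511 CPM there. Within 100000 nt of Srsf2 the same 2 libraries had 1259 and 1177 CPM. SRSF2 replicates 1, 3 and 4 had 4726, 2392 and 10140, and SRSF5 replicate 4 had 1212. Both libraries were analysed as labelled, and the counts of called regions are also given with both left out. By the file headers, SRSF2, SRSF5, SRSF6 and SRSF7 replicates 1 to 3 were run in an earlier year and SRSF1, SRSF3, SRSF4, NXF1 and the other SRSF7 libraries in a later one, so year and protein cannot be told apart outside SRSF7.

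The regions were short and held few tags. The median width was 14 nt, with quartiles of 5 and 24 nt, and the median region held 5 tags over all 31 libraries. The single libraries listed no tag in 2064 regions, which therefore rest on clusters of the pooled files alone, and 6978 regions had tags in 1 library only. Clusters of 1 protein made up 11620 regions and clusters of all 8 made up 247. At the other end, 198 regions held 50% of the 706749 tags. The control had a tag in 21 regions.

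On each side the midpoints of the regions were most frequent at a particular distance from the exon, which the merging rule can shape. A cluster 30 nt or less from an exonic cluster was joined to it. The joined region was left out where its midpoint then fell in the exon. On the 5′ side, 248 regions had their midpoint in the first 10 nt of the intron, 749 in the next 10 and 1435 at 21 to 30 nt, and the peak of 1746 regions, 17.0% of that side, lay 31 to 40 nt into the intron. From there the counts went down to 858 at 91 to 100 nt. On the 3′ side the peak of 1015 regions, 16.6% of that side, lay 51 to 60 nt before the exon, and fewer lay nearer to the exon, where polypyrimidine tracts and branch points usually are, with 402 at 21 to 30 nt, 687 at 11 to 20 nt and 605 in the last 10 nt. Among regions that overlapped no exon the peaks were at the same distances, with 17.3% and 18.4% of their sides. These regions are the ones not joined to an exonic cluster, so they are no separate check. Among all tags in the 100 intronic nt of the 3′ side, SRSF6 had a mean of 42.0% in the last 10 nt of the intron. At 51 to 60 nt it had 5.95%. SRSF1, SRSF3, SRSF4 and SRSF7 also had more in the last 10 nt than at 51 to 60 nt, and SRSF2, SRSF5 and NXF1 fewer. The limit of 100 nt cut through a flat stretch, because the last 10 nt inside it held 1322 regions of both sides and the next 10 nt outside held 1305, with a median of 5 tags in each.

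**Figure D1:**
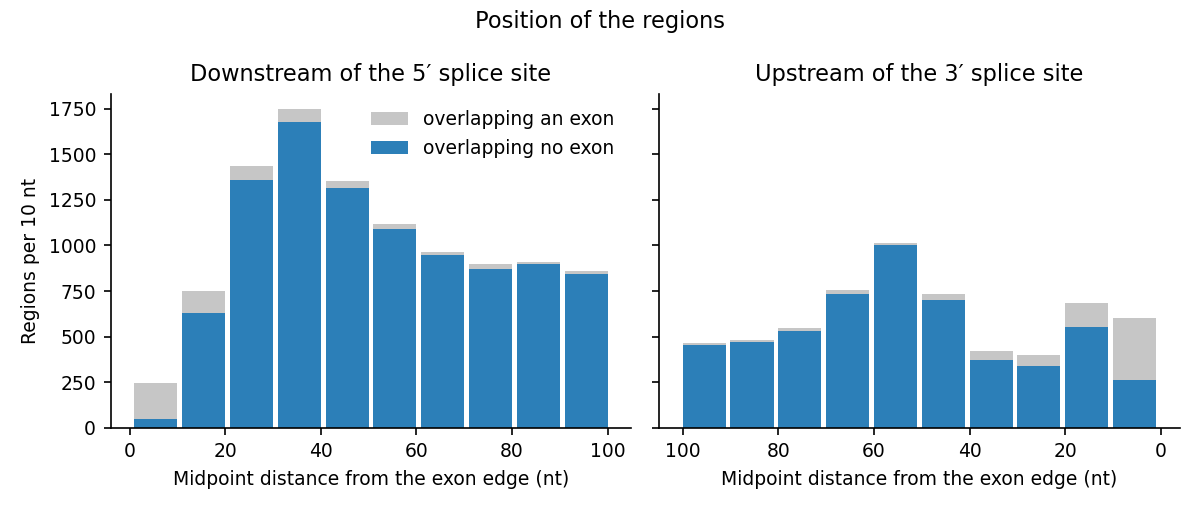
Number of regions per 10 nt (vertical axis) against the distance of the region's midpoint from the exon edge in nt (horizontal axis), 5′ splice site side in the first panel and 3′ side in the second, whose axis is reversed. Grey bars overlapping an exon and blue bars overlapping none show the highest count of 1746 regions at 31 to 40 nt on the 5′ side and of 1015 at 51 to 60 nt on the 3′ side.

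The host introns resembled introns in general in their end bases, while their length differed between the sides. Their median length, with an intron counted once for each of its regions, was 1404 nt, with 1690 nt for the 5′ side and 956 nt for the 3′ side. Over the 184407 representative introns, each counted once, it was 1314 nt. The intron began with GT and ended with AG for 98.7% of the 14593 introns with a region and for 98.4% of all introns. GC at the start was seen for 0.850% against 0.799%, and the AT-AC pair, typical of some introns of the minor spliceosome, for 0.103% against 0.0879%. First introns held 8.77% of the regions and make up 10.5% of all introns.

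Most tags came from few regions that reached into an exon. Although every midpoint was intronic, 1295 regions extended over an annotated exon, of the host or of a small RNA within the intron. They had a median width of 147 nt and held 78.2% of the tags. The remaining 15105 regions overlapped no exon, had a median width of 13 nt and held 154231 tags. The share of tags in regions that overlapped an exon ran from 11.9% to 91.5% over the 31 libraries, and 51.0% of all tags lay on exonic bases. For that reason results are given for all regions and, where it changes the answer, for the regions overlapping no exon.

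Clusters of every protein were found. Of the 16400 regions, 5150 had a cluster of SRSF2, 5121 of SRSF3, 4095 of SRSF4, 3797 of SRSF6, 3747 of SRSF7, 3162 of SRSF5, 2239 of SRSF1 and 474 of NXF1. Regions with a cluster of 1 protein alone ranged from 95 for NXF1 to 2745 for SRSF3. The 5′ side took between 56.1% (SRSF3) and 67.4% (SRSF1) of a protein's regions. The cluster files of SRSF2, SRSF3 and SRSF6 were made from 1 library each and the others from summed libraries of very unequal size, so these counts do not rank the proteins.

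The weight of the splice-site regions in a library moved with its number of listed tags. On the 5′ side they took 0.261% to 2.41% of the listed tags of an SR library, with a median of 1.20%, and 0.726%, 0.802% and 0.640% in the NXF1 libraries. On the 3′ side the SR libraries ranged from 0.299% to 2.87%, with a median of 1.02%, and NXF1 had 0.761%, 0.826% and 0.819%. All NXF1 values lay inside the SR range. The control had 0.178% on the 5′ side and 2.07% on the 3′ side. Across the 31 libraries, which share a threshold that depends on depth, Spearman's rho with the number of listed tags was 0.862 for the 5′ share and 0.391 for the 3′ share.

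**Figure D2:**
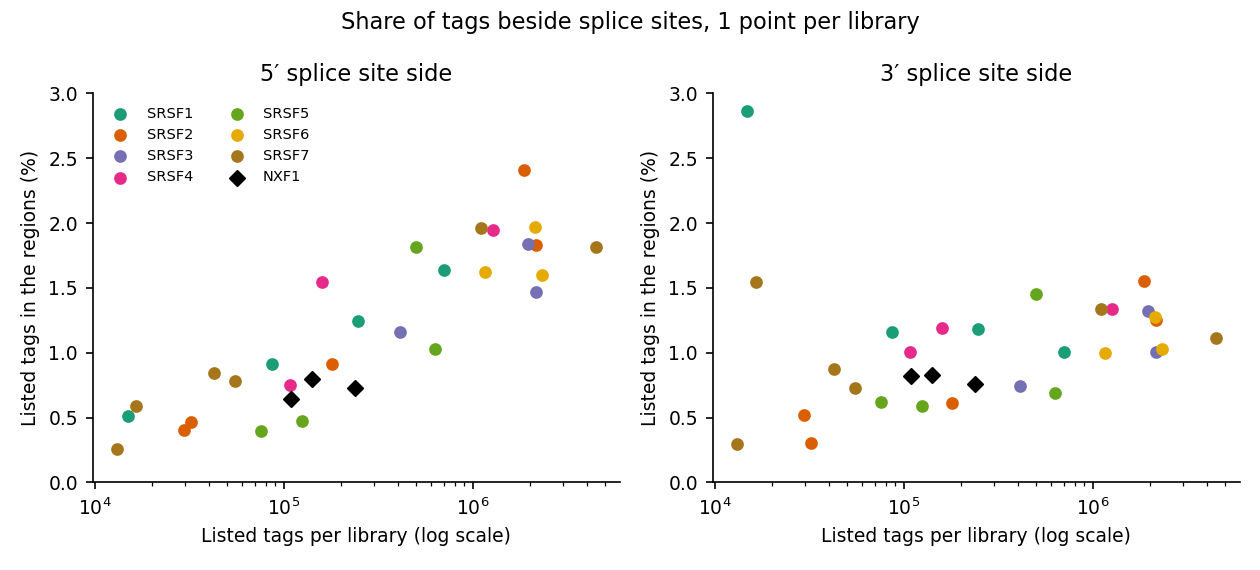
Share of a library's listed tags in the splice-site regions (vertical axis, %) against its number of listed tags (horizontal axis, log scale), 5′ side in the first panel and 3′ side in the second, 1 point per library, colours for proteins and diamonds for NXF1. On the 5′ side the share is higher in libraries with more tags, from 0.261% to 2.41% among SR libraries, and the 3 NXF1 libraries lie between 0.640% and 0.802%.

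NXF1 was compared with the 28 SR libraries for 9 measures of a library. The 5′ share was 0.722% ± 0.0807 (SD, n = 3) with NXF1 and 1.22% over the SR libraries (exact permutation test over libraries, two-sided, adjusted p = 0.283), and the 3′ share was 0.802% ± 0.0353 against 1.06% (exact permutation test, adjusted p = 0.412). Tags in the regions per tag in the 100 exonic nt across the same splice sites were more frequent with NXF1. Exonic tags inside a region were counted with the region and left out of those 100 nt, so the ratio is not one of intronic to exonic tags. The log2 of that ratio was 0.76, 1.68 and 2.35 in the NXF1 libraries and ran from −1.37 to 1.64, with a median of −0.52, in the SR libraries, so 2 NXF1 libraries lay above the SR range. The difference of the means was 1.90 (exact permutation test, adjusted p = 0.0120), and it passed the threshold neither without NXF1 replicate 2 nor without replicate 3, where the highest adjusted p of the exact permutation test was 0.0828. The difference was 0.39 without the 1% of regions with the most tags and 0.80 in regions overlapping no exon without the Wwp2 region described below, and it passed the threshold in neither. The ratio also moved with the number of listed tags, with a Spearman's rho of −0.778 over the 31 libraries.

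On the 5′ side, NXF1 tags of the regions lay deeper in the intron, but by an amount that a few regions set. Their mean distance from the exon, with exonic bases counted as negative, was 81.04, 107 and 95.8 nt in the NXF1 libraries and 3.07 to 68.6 nt in the SR libraries, with a median of 25.3 nt and no overlap between the groups. The difference was 66.7 nt (exact permutation test, adjusted p = 0.0020, whose unadjusted p of 0.0002 is the smallest that 4495 splits can give). It was 19.3 nt without the 1% of regions with the most tags and 4.56 nt with all tags in the 100 intronic nt, past the threshold in neither. Among regions that overlapped no exon the means were 53.2 and 56.7 nt (exact permutation test, adjusted p = 0.389), so the direction was the opposite there and the difference smaller than the spread between libraries. The other 5 of the 9 measures, which are the 3′ to 5′ ratio, the 3′ mean distance and the shares of tags near CNTC, GGA and TTTT, had adjusted p-values of 0.0741 to 0.453 in the same exact permutation tests.

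Levels of single regions were then compared with limma voom, fitted on all merged regions with at least 42.1 CPM in 3 libraries and 15 tags in all. This filter left 6649 regions, of which 281 were splice-site regions (175 on the 5′ side and 106 on the 3′ side) and 18 overlapped no exon, and the remaining splice-site regions were too sparse to test. Between NXF1 and the mean of the 7 SR proteins 13 of the 281 were called at an adjusted p under 0.05, next to 11.7% of all tested regions. Higher with NXF1 were 12, next to a background of 10.1%, and lower was 1, next to 1.64%. An unadjusted p under 0.05 was reached by 88. In simulated data this fit recovered 92% of regions set 8-fold higher with NXF1 and 24% of those set 8-fold lower. At 4-fold it recovered 38% and 14%. Lower levels were thus harder to call in the simulated data, which had the same dispersion in all regions and no listing threshold. Recovery under such a threshold was not tested, and the numbers called higher and lower do not show the balance of directions. Of the 12, 3 (Chd4, Tbrg4 and Eif4a1) passed the filter only because of the NXF1 libraries, so the filter itself favours their being higher there, and 9 passed on SR libraries alone. The median log2 difference was −1.03 over all tested regions and −2.02 over the 281.

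The counts depended on the scale on which the libraries were set. With trimmed-mean scaling, under which the all-region median was −1.20, 8 of the 281 were called, all higher, next to 5.37% of all tested regions higher. With median-ratio scaling, at a median of −1.85, 6 were higher and 46 lower, next to 4.11% and 10.6% of all tested regions. With protein-coding totals, at a median of −0.13, 20 were higher and 7 lower, next to 17.7% and 1.1%. The split was 12 to 145 with limma-trend, where all regions had 9.87% higher and 27.9% lower. It was 14 to 29 of 201 in the later year alone (14.2% and 6.5% of all), 13 to 17 of 553 in libraries of at least 50000 tags (5.82% and 1.6%), and 13 to 9 of 191 without the libraries labelled SRSF2 replicates 2 and 5 (12.3% and 3.48%). A direction is therefore given below only for named regions, with the number of 8 alternative settings that also called it where the region passed the filter without NXF1.

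Of the 12 regions higher with NXF1, 6 ended directly before a snoRNA, 3 overlapped one and 3 did neither. The first group is the one whose sequences are shown above. The Chd4 region, in intron 31 of a chromatin remodeller gene (21 nt, mm9 chr6:125071721-125071741), had 63.2, 142 and 92.0 CPM in the NXF1 libraries, while 18 of 28 SR libraries listed no tag and the highest had 15.95. No SR library reached any NXF1 library. The NXF1 libraries were the 3 that carried the region over the filter, so its log2 difference of 4.65 (SE 0.69) is a description, and with any 1 of them left out it was not tested.

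Tcp1, which encodes a subunit of the chaperonin CCT, had 114, 78.4 and 212 CPM with NXF1 next to an SR median of 9.87 and a highest SR value of 151, in SRSF4 replicate 3. The groups overlapped by that library and SRSF2 replicate 1, and the log2 difference was 3.18 (SE 0.53, limma adjusted p = 0.00011, 8 of 8 alternatives). Tbrg4, a mitochondrial RNA-binding protein gene, had 88.4, 71.2 and 138 CPM, all above the highest SR library at 69.0. Only 2 SR libraries exceeded the minimum of the filter there, so its log2 difference of 2.75 (SE 0.56) is likewise a description. The Tcp1 call held without each of the 31 libraries in turn.

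The other 3 of the group were nearer to the threshold. Rpl5, a protein of the large ribosomal subunit, had 122, 256 and 304 CPM with NXF1 and an SR median of 23.4, with a highest value of 132. Eif4a1, the helicase of translation initiation, had 58.95, 78.4 and 73.6 CPM and an SR median of 0, with a highest value of 50.2. Rpl23, another large subunit protein, had 105, 78.4 and 129 CPM and an SR median of 7.76, but SRSF2 replicate 1 reached 218. Their log2 differences were 2.93, 3.17 and 3.07 (SE 0.72, 0.81 and 0.80). Eif4a1, with 2 SR libraries over the minimum, needed the NXF1 libraries to pass the filter, and its difference is a description. Rpl5 was called (limma adjusted p = 0.0054) in 7 of 8 alternatives and Rpl23 (limma adjusted p = 0.0092) in 6 of 8, where neither was called with median-ratio scaling and Rpl23 also not with trimmed-mean scaling. The Rpl5 call was lost without NXF1 replicate 2 or 3 and the Rpl23 call without replicate 3, at adjusted p-values of limma of up to 0.0678 and 0.0747.

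The regions that overlapped a snoRNA were wider and higher. Rps12, a small subunit protein, had 1267, 1204 and 1426 CPM with NXF1 over a region of 245 nt with Snora33, and SR libraries had a median of 184 and at most 622. The groups did not overlap, and the log2 difference was 3.06 (SE 0.60, limma adjusted p = 0.00062), called in 8 of 8 alternatives and without each library in turn. Ncl, which encodes nucleolin, had 1171, 1795 and 902 CPM with SNORD20 in the region and an SR median of 207, and Snx5, a sorting nexin gene, had 434, 955 and 515 CPM with SNORA70, next to an SR median of 107 and a highest SR value of 772, in SRSF4 replicate 3, above 2 of the NXF1 libraries. Both were called (log2 difference 2.76 and 2.38, SE 0.80 and 0.69, limma adjusted p = 0.021 and 0.020) in 6 of 8 alternatives, and neither without any 1 of the NXF1 libraries, at adjusted p-values of limma of up to 0.163 and 0.181. The control had 11 tags, or 503 CPM, in the Ncl region and none in the other 2.

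Outside snoRNA introns, Cct6a, another chaperonin subunit, had 358, 534 and 432 CPM with NXF1 in a 3′ side region and an SR median of 35.8, with a highest value of 216, so the groups did not overlap. Its log2 difference was 3.32 (SE 0.80, limma adjusted p = 0.0046, 8 of 8 alternatives), lost without NXF1 replicate 2 at an adjusted p of 0.0539. Tmem167b had 859, 741 and 184 CPM in a region of 1134 nt of which 492 were exonic, next to an SR median of 8.54 and a highest value of 276 in the library labelled SRSF2 replicate 2 (log2 difference 5.00, SE 0.93, limma adjusted p = 0.00036, 8 of 8 alternatives). The region lower with NXF1 was in Snrnp48, a gene of the minor spliceosome. No NXF1 library listed a tag there, the SR median was 25.04 CPM and the highest value 164, in SRSF7 replicate 3 (limma adjusted p = 0.032, 6 of 8 alternatives, lost without any 1 NXF1 library).

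**Figure D3:**
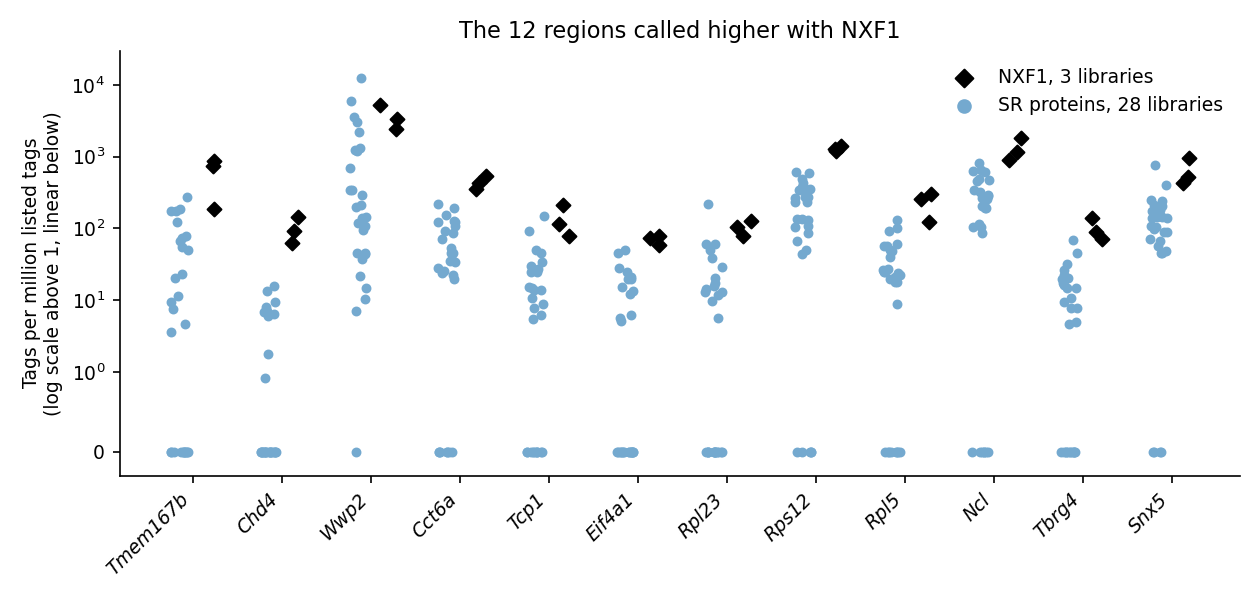
Level in CPM (vertical axis, log scale above 1 and linear below) of the 12 regions called higher with NXF1, named by gene (horizontal axis), with black diamonds for the 3 NXF1 libraries and blue points for the 28 SR libraries. In Chd4 the NXF1 libraries lie at 63.2 to 142 CPM and no SR library exceeds 15.95, whereas in Wwp2 the SR libraries reach 12420.

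Introns with an annotated small RNA held 199 of the 16400 regions, 120 with a snoRNA, 45 with a miRNA and 34 with another type. Of these, 110 lay upstream of the small RNA, 79 downstream, and 10 overlapped it. Directly before the first base of a small RNA, with no base between, ended 8 regions. Besides the 6 above these were the regions of Rpsa, a ribosomal protein gene, before SNORA73, and of 2310037I24Rik before Snora2b. In all 8 introns the control listed no tag. This arrangement was noticed after the calls were seen, so its values are a description without a test.

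Tags of these 8 sites stood on a few bases. Within 20 nt on either side of the first base of the small RNA, 83.9% to 99.0% of a site's tags lay on the last 5 bases before it. The single base with most tags was the base directly before it for Chd4 and 2310037I24Rik, the second base before it for 5 sites, and the fourth for Rpl23. Only Rpl5 had tags on the first 20 bases of the small RNA, 8 next to 522 on the 20 bases before. The sites were taken because their region ended before the small RNA, and clusters 30 nt or less apart were joined. A cluster on those 20 bases would have taken a site out of the set, so their near emptiness is no separate result. Pooled over the sites, 49.1% of the NXF1 tags lay on the second base before and 33.9% on the base directly before. Further inside the small RNAs, which are 128 to 203 nt long, there were 209 to 3708 tags. A cDNA of the host intron and one that was copied to the end of the finished snoRNA are listed at the same bases, so these sources cannot be told apart.

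**Figure D4:**
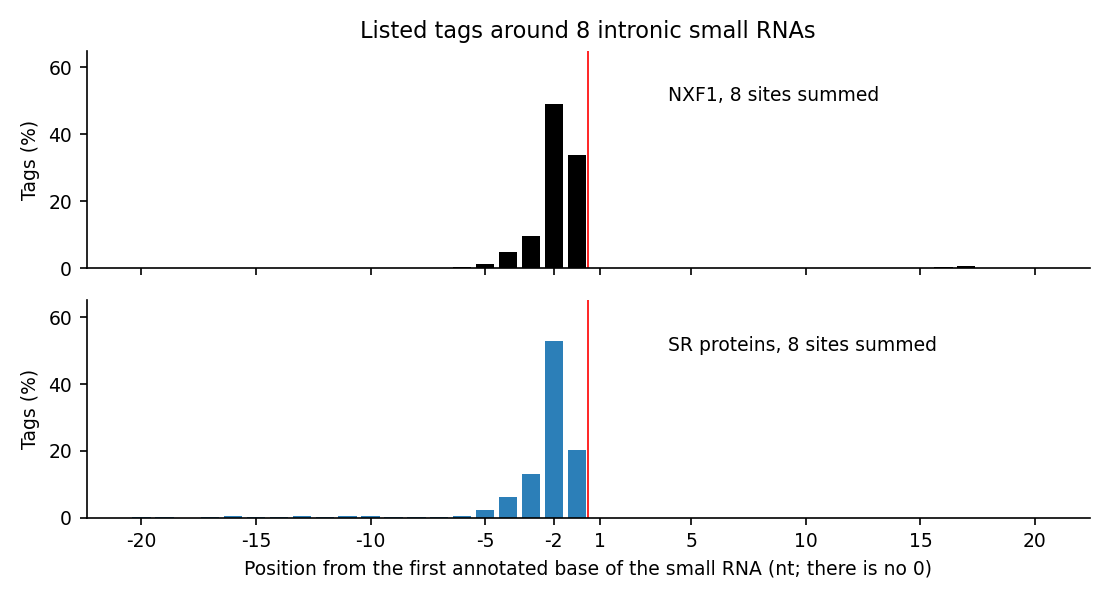
Share of tags (vertical axis, %) at each base from 20 before to 20 after the first base of the small RNA (horizontal axis), pooled over 8 small RNAs, NXF1 in the first panel and SR proteins in the second. In both panels the tags lie on the last bases before the small RNA, where the regions end by the choice of sites. The second base before it has 49.1% of the NXF1 tags.

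Since 6 of the 8 sites were called higher with NXF1, a higher sum there is no separate result. Summed over the last 5 bases of all 8 sites the level was 552, 948 and 1049 CPM with NXF1 and 0 to 483 CPM with SR proteins, with a median of 108 CPM and no tag in 5 SR libraries. At the 2 sites not called, Rpsa and 2310037I24Rik, NXF1 had 0, 249 and 101.2 CPM and SR libraries 0 to 307 with a median of 13.7. These sites were set apart because they were not called, so that overlap is no separate result either. Since the level could depend on the number of listed tags, the 9 SR libraries between 50000 and 500000 tags were read alone, and over all 8 sites they had 0 to 483 CPM with a median of 142. Spearman's rho with listed tags was 0.0533 over the 31 libraries. NXF1 tags were present at 6, 7 and 8 of the 8 sites. All 199 regions in introns with a small RNA took 0.597% to 0.797% of the NXF1 tags and 0.0270% to 0.822% of the SR tags, with a median of 0.245%. Without the regions called higher these ranges were 0.218% to 0.331% and 0% to 0.691%. The regions left out were chosen for being higher with NXF1, so the overlap of these ranges is no separate result.

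The highest mean level of a region that overlapped no exon was in Wwp2, a ubiquitin ligase gene, 38 nt before the last exon (13 nt, mm9 chr8:110080743-110080755). NXF1 had 2446, 3334 and 5234 CPM, and SR libraries 0 to 12420 with a median of 170. The log2 difference of 4.01 (SE 1.21, limma adjusted p = 0.026) was called in 7 of 8 alternatives, but not without any 1 NXF1 library, at an adjusted p of up to 0.165, nor in the later year alone. SRSF1 replicates 1 to 4 had 692, 2217, 3555 and 12420 CPM, at 703367, 246270, 86924 and 14900 listed tags, and SRSF7 replicate 5, with 16556, had 5980 CPM. Libraries with fewer tags were thus higher, with a Spearman's rho of −0.613 over the 31 libraries. The 9 SR libraries of 50000 to 500000 tags had 110 to 3555 CPM with a median of 1187, and the NXF1 libraries, at 108708 to 237488 tags, overlapped them. The control had 48 tags there, or 2194 CPM. This region alone held 71.0%, 69.1% and 77.8% of the NXF1 tags in regions overlapping no exon, and 0% to 56.9%, with a median of 4.52%, of those of the SR libraries.

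Other short regions had the same order by depth. In Comp, a cartilage matrix gene, a region of 2 nt had 297 control tags, which is 13570 CPM or 1.36% of the control, and 8859 CPM in SRSF1 replicate 4 and 3322 in SRSF7 replicate 5, next to an SR median of 1.89. Cd247, a T cell receptor chain gene, had 88 control tags at 1 base and tags in 4 SR libraries. In Igf2r, a receptor gene, SRSF1 had 118, 227, 989 and 1678 CPM in its replicates 1 to 4, SRSF4 961, 197 and 370, and NXF1 25.3, 0 and 36.8. The Igf2r region was called among SR proteins (limma F-test, adjusted p = 0.00013), but its Spearman's rho with listed tags was −0.558, and the part of depth in the call was not tested. No control tag lay in it.

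Among the 7 SR proteins, limma voom's F-test called 114 of the 281 regions, 70 on the 5′ side and 44 on the 3′ side, next to 63.4% of all tested regions. The highest mean was with SRSF3 in 34 of them, SRSF6 in 28, SRSF4 in 17, SRSF1 and SRSF7 in 11 each, SRSF5 in 7 and SRSF2 in 6. Of the 18 tested regions that overlapped no exon 8 were called, next to 106 of the 263 that overlapped an exon. SRSF1 had the highest mean in 5 of the 8. In the Igf2r region, which is among them, its highest value was in replicate 4, with 14900 listed tags. In 15 of the 114 every library over the minimum of the filter was of 1 SR protein, so the filter itself favours a difference in them. With libraries of at least 50000 tags 257 of 553 were called, next to 62.2% of all tested regions, and without the libraries labelled SRSF2 replicates 2 and 5 84 of 191, next to 64.3%.

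The region in Ndufs7, which encodes a subunit of respiratory complex I, was high with SRSF2 and SRSF5. SRSF5 had 1779, 1037, 580 and 530 CPM and SRSF2 1181, 539, 101.1, 779 and 357, whereas SRSF6 had 31.9, 23.4 and 33.5 and SRSF7 0 to 36.4 (limma F-test, adjusted p = 2e-06). The lowest SRSF5 library thus exceeded every library outside SRSF2 and SRSF5. The control had 6 tags. Npm1, which encodes the nucleolar protein nucleophosmin, showed another set of proteins. SRSF4 had 638, 621 and 728 CPM, SRSF6 508, 661 and 477, and SRSF1 532, 536, 506 and 0, next to 2.44, 6.50 and 12.8 for SRSF3 and 16.03, 35.0, 52.8 and 11.96 for SRSF5 (limma F-test, adjusted p = 2.3e-05). The SRSF1 library at 0 is replicate 4, with 14900 listed tags. SRSF7 replicates 3, 4 and 6 had 397.7, 290.6 and 212.2 CPM in the Npm1 region. Its replicates 1, 2 and 5, with 13038, 54936 and 16556 listed tags, had no tag there.

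SRSF3 and SRSF6 were high together in wide regions of Adam12 and Strc, where SRSF4 had tags too. In intron 10 of Adam12, a metalloprotease gene, SRSF3 had 110, 86.4 and 91.3 CPM, SRSF6 56.8, 56.3 and 67.0, SRSF4 27.7, 63.2 and 37.7, and no SRSF1 library had a tag (limma F-test, adjusted p = 2e-06). The libraries labelled SRSF2 replicates 1 to 5 had 62.18, 26.39, 67.39, 72.35 and 27.94 CPM there. In intron 15 of Strc, the gene of an inner ear protein, SRSF3 had 313, 216 and 210 CPM and SRSF6 100.7, 87.4 and 60.9. SRSF4 had 46.2, 91.56 and 18.82 CPM in it, and no library of SRSF1, SRSF5, SRSF7 or NXF1 had a tag. A second Adam12 region, in intron 13, and a second Strc region, in intron 7, were called as well. In that Adam12 region SRSF3 had 41.54, 50.63 and 53.87 CPM, SRSF6 38.31, 52.8 and 49.57, and SRSF4 27.72, 44.2 and 87.84. SRSF2 replicate 4 reached 111.3 there. In that Strc region SRSF4 had 0, 71.83 and 69.02 CPM. In Srrt, which encodes the RNA maturation factor ARS2, SRSF6 had 67.2, 100 and 68.5 CPM and SRSF3 no tag, but the SRSF6 libraries alone carried it over the filter.

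A region led by SRSF7 was in Dhx57, a putative helicase gene. SRSF7 replicates 2, 3, 4 and 6 had 164, 304, 262 and 226 CPM, the 2 shallowest SRSF7 libraries, replicates 1 and 5, had no tag, and no other SR library exceeded 5.60. Only SRSF7 libraries carried the region over the filter, so these levels are a description. Rps25, a ribosomal protein gene, had 27.7, 48.9 and 69.0 CPM with SRSF4 and 49.5, 61.5 and 34.0 with SRSF6 in a region of 30 nt that ends 2 nt into the exon. Stk39, Mllt4, Incenp and Hdac5 completed the 12 regions with the smallest p, with highest means in SRSF4, SRSF4, SRSF1 and SRSF3. In Incenp the SRSF1 mean rests on replicate 4, at 268.5 CPM and 14900 listed tags, while its replicates 1 to 3 had 32.7, 12.2 and 0 CPM, below the means of SRSF6 and SRSF7, 61.7 and 71.5 CPM.

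The regions with the most tags on the 3′ side overlapped a snoRNA. In Eef2, the gene of an elongation factor, a region with Snord37 had 13720 tags, the most of all 16400. SRSF1 had 1450, 3269, 1967 and 201 CPM there, and SRSF7 1764, 1365, 3789, 318.6, 1389 and 857.8. SRSF4 had 1303, 520.2 and 1581 CPM and SRSF6 713.3, 704.5 and 1297. SRSF3 was at 293, 201 and 245, and NXF1 at 960, 976 and 800. In Rps13, with Snord14a, SRSF5 had 3807, 1928, 1517 and 1212 CPM and SRSF3 210, 67.4 and 104. Both were called among SR proteins (limma F-test, adjusted p = 0.00093 and 0.00048) and neither between NXF1 and SR proteins (limma adjusted p = 0.392 and 0.370). Hist1h2bc, a histone gene with near-identical copies whose reads the counting could split, had 1266, 654 and 1048 CPM with SRSF4.

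Genes of the splicing machinery themselves held regions on both sides. Of 13 SR protein genes 8 had regions, 26 in all with a median of 15.5 tags, and of 26 hnRNP genes 22 had 117 with a median of 20, next to a median of 5 over all regions. Genes for recognition of the 5′ splice site had 56 with a median of 9 and those for the 3′ splice site 85 with a median of 10. SR protein kinase genes had 17, with a median of 3, and mRNA export genes 34, with a median of 5.5. The share called among SR proteins was 63.4% over all tested regions. In the hnRNP genes 13 were tested and 8 called, near that share, in the 5′ splice site list 5 and 2, in the 3′ splice site list 6 and 2, and in the SR protein genes 2 and 2, while none of the kinase and export regions passed the filter. No region of any list was called between NXF1 and SR proteins.

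Examples of these lists differed among proteins. In Snrnp70, which encodes a protein of the U1 small nuclear RNP, SRSF3 had 75.7, 79.4 and 106 CPM, above every other library (limma F-test, adjusted p = 0.039, lost with limma-trend and without the libraries labelled SRSF2 replicates 2 and 5). In Hnrnpu, an hnRNP gene, SRSF4 had 166, 361 and 320.0 CPM, SRSF6 218, 372 and 237, and SRSF3 0, 35.8 and 46.7 (limma F-test, adjusted p = 0.029, lost in 3 of 8 alternatives). SRSF1 had 309.9, 211.2, 264.6 and 0 CPM there, and SRSF5 replicate 4 had 317.0. The libraries labelled SRSF2 replicates 2 and 5 had 301.1 and 278.0. In Srsf5 itself a 3′ side region had no tag with SRSF3 or NXF1 and at most 75.9 CPM, in the library labelled SRSF2 replicate 5. The cell type marker Dnmt3b, a DNA methyltransferase, had 8 regions, and the highest of them held 130, 123 and 130 CPM with SRSF3 (limma F-test, adjusted p = 0.371).

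Motifs near the tags were counted on the RNA strand, within 10 nt of the tagged base. In all regions no measure differed among the 7 SR proteins after adjustment over the 9 measures, and the share near CNTC came nearest (F = 3.95, permutation test over 28 libraries, adjusted p = 0.0995). SRSF3 tags were most often near CNTC, a motif known for this protein. In regions overlapping no exon and without Wwp2, the shares were 62.8%, 54.5% and 52.4% with SRSF3 and averaged 29.2% in the other 25 SR libraries, with SRSF1 replicate 4 at 61.2% and SRSF2 replicate 1 at 58.1% (exact permutation test, p = 0.0027, adjusted over 63 follow-up tests 0.173). These 2 libraries had 14900 and 32164 listed tags. Of all intronic bases within 100 nt of a splice site, 22.1% on the 5′ side and 26.3% on the 3′ side have CNTC that near.

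In the 22 SR libraries with at least 50000 tags the proteins did differ in these regions. The libraries labelled SRSF2 replicates 2 and 5 are among the 22, and the tests at this minimum were not run without them. The CNTC share had F = 21.2 (permutation test, adjusted p = 0.0030), and SRSF3 averaged 56.6% against 24.6% in the others, whose groups did not overlap (exact permutation test, p = 0.00065, adjusted p = 0.0273). The share near GGA, a motif of purine-rich exonic enhancers, also differed (F = 7.73, permutation test, adjusted p = 0.0042), with SRSF1 at 34.1% against 19.2% (exact permutation test, adjusted p = 0.0273). On the 3′ side SRSF7 tags lay nearer to the exon, at a mean of 43.1 nt against 55.7 nt (exact permutation test, adjusted p = 0.0273). The Ctage5 region shown above is an example for SRSF3, with 16, 29 and 43 tags in its 3 libraries and 21 of all other proteins together, 47 nt into intron 20.

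**Figure D5:**
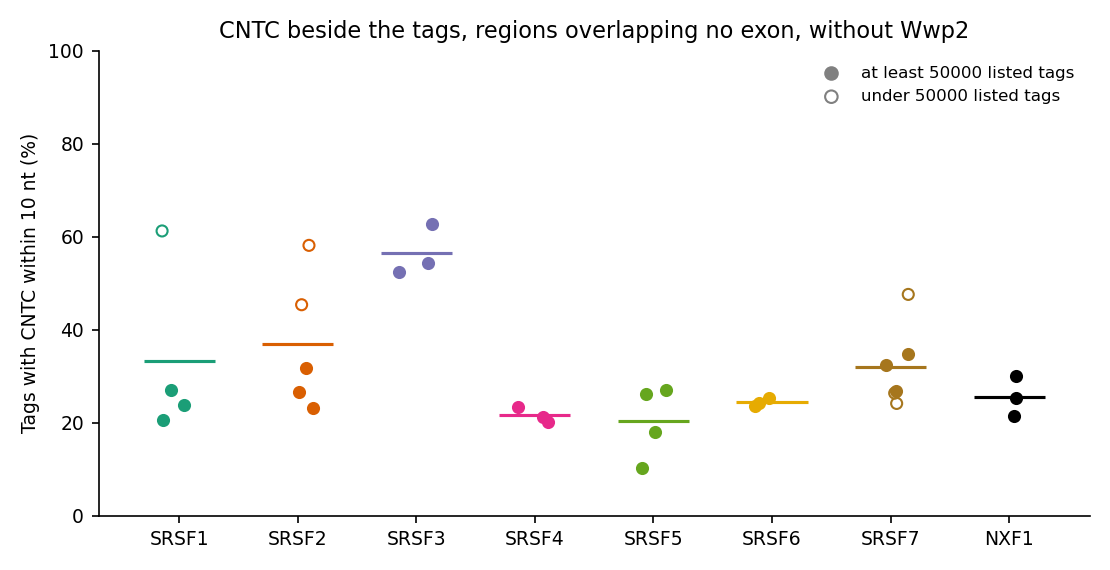
Share of tags with CNTC within 10 nt (vertical axis, %) in regions that overlap no exon, without the Wwp2 region, by protein (horizontal axis), 1 point per library, filled for at least 50000 listed tags and open for fewer, with a line at the mean. The 3 SRSF3 libraries lie at 52.4% to 62.8%, and no other filled point reaches them.

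For NXF1 the calls on motif shares depended on the Wwp2 region. In regions overlapping no exon, 79.6% of NXF1 tags were near CNTC against 42.9% of SR tags (exact permutation test, adjusted p = 0.0040), 3.398% against 17.4% near GGA and 4.56% against 26.01% near TTTT (exact permutation test, adjusted p = 0.0040 and 0.0187). Without that single region the CNTC shares were 25.6% and 32.1% (exact permutation test, adjusted p = 0.540). Those near GGA were 11.9% and 21.3% and those near TTTT 17.1% and 29.2% (exact permutation test, adjusted p = 0.235 for both), so these differences kept their direction, and no measure passed the threshold. In libraries of at least 50000 tags they had unadjusted p-values of 0.0457 and 0.0391 (exact permutation test, adjusted p = 0.103 for both). In the control 76.1% of the tags in the remaining regions were near CNTC, where Comp held most of them.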

How the data were processed

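The deposited values are whole-number counts of unique cDNAs (tags) at single nucleotides, where the sign gives the strand. Groups were taken from sample titles. The authors kept positions past a false discovery rate of 0.05 (100 permutations, 15-nt neighbourhood, mm9 with Ensembl 59 segments) in each library, and joined them into clusters for each protein. CASAVA 1.4 is listed in the submitters' processing notes, as is mm9, with the aligner not given in the sources used here. The listed total of a library is thus not its sequencing depth, and 0 means no listed position.

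Clusters were merged and assigned to introns with GENCODE vM1 on mm9, taking the transcript with the longest coding sequence as representative. Where the midpoint lay in introns of 2 genes (677 times among all merged regions) the nearer exon edge decided. For every library, tags were summed in each region and scaled to CPM by its listed total. All merged regions past the filter were fitted with limma voom (limma 3.58.1, R 4.3.3) over 31 libraries without a block, with Benjamini-Hochberg adjustment and calls at 0.05. A count model was planned as an alternative and was not used, since listing depends on a threshold. Library measures were compared by exact permutation tests over libraries (NXF1 against SR proteins) or 100000 resamples (among SR proteins), adjusted over 9 measures, in scipy 1.17.1. The fits were tested on simulated data. Alternatives were other scalings and filters, limma-trend, a block, a minimum of 50000 tags, 1 sequencing year, and leaving out libraries or regions. Leaving out Wwp2 or regions overlapping an exon, and the earlier year alone, were chosen after the data had been seen.

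Named regions are, per side, the 8 with the highest mean CPM over proteins, up to 8 higher and 8 lower with NXF1, the 12 with the smallest p among SR proteins, and the highest of each gene list. Naming every region called with NXF1 was decided after values were seen, and so was naming Rpsa, 2310037I24Rik, Cd247 and Ctage5. Regions on chromosome 18 were counted but not named. The regions and gene lists were chosen with earlier results of these data known.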

Additional observations from a re-analysis of the deposited data

Results flagged for a closer look

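Of 36 combinations of a protein with 4 to 6 libraries and a measure, 7 had 1 library far from the others of its protein, where chance alone gives about 1 in 20. On the 3′ side, SRSF1 replicate 4 had 2.866% of its listed tags in splice-site regions and the other SRSF1 libraries 1.009% to 1.187%. In the same library 10.34% of the tags were near GGA, next to 38.88% to 39.89%. It holds 14900 listed tags, the fewest of the SRSF1 libraries, and 36.78% of its tags in these regions lay in the Wwp2 region.

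The other 5 were in SRSF2 and SRSF5. SRSF2 replicate 3 had a log2 ratio of 3′ to 5′ side tags of 0.3692 (others −0.6345 to −0.5471) and 41.03% of tags near CNTC (others 23.48% to 27.68%), and SRSF2 replicate 1 a mean 3′ side distance of 74.9 nt (others 41.37 to 45.34 nt). These 2 libraries have 29680 and 32164 listed tags. SRSF5 replicate 4 had 1.455% of its tags in 3′ side regions (others 0.5915% to 0.689%), and SRSF5 replicate 1 a mean 3′ side distance of 81.36 nt (others 47.99 to 53.62 nt).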

How the results depend on the processing

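Over all regions, the shares of tags on either side and the ratio of the sides changed no call under the alternatives run. In regions overlapping no exon the 3′ to 5′ log2 ratio, NXF1 minus SR proteins, was 1.786 (exact permutation test, adjusted p = 0.0697) and passed with at least 50000 tags (1.861, adjusted p = 0.0196), and was −1.353 without Wwp2, not past the threshold. NXF1 minus SR proteins, the log2 ratio of region tags to tags in the 100 exonic nt was no longer past the threshold in 3 settings. These were all tags in the 100 intronic nt (1.313), without the 1% of regions with the most tags (0.3885) and regions overlapping no exon without Wwp2 (0.7996). The difference ranged from 1.523 to 2.32 with 1 library left out, lost without NXF1 replicate 2 or 3. The 5′ mean distance was lost with all tags (4.557 nt) and without the top 1% (19.34 nt), and reversed in regions overlapping no exon, with or without Wwp2 (−3.55 nt in both). The 3′ mean distance passed with at least 50000 tags (21.66 nt), in the later year (24.55 nt), without regions holding a control tag (47.76 nt), without Wwp2 (42.75 nt), and without SRSF2 replicate 1 or SRSF5 replicate 1 (range 14.73 to 26.73 nt with 1 library left out). The motif differences passed with all tags (CNTC 19.57, GGA −8.102, TTTT −17.74 percentage points) and in regions overlapping no exon (CNTC 36.75, GGA −14, TTTT −21.45). GGA also passed with at least 50000 tags (−10.9) and with the replicate block (−11.43), and TTTT without SRSF5 replicate 1 (range −8.705 to −7.546).

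Among SR proteins the CNTC F of 3.945 did not pass, and passed with at least 50000 tags (15.46), residuals on log10 listed tags (7.153), all tags (3.59), without control-tag regions (27.92), without the top 1% (6.363), with the replicate block (4.852), without Wwp2 (7.722) and without SRSF1 replicate 4 (range 3.036 to 6.739). GGA passed with at least 50000 tags (F = 16.28), all tags (4.936), without control-tag regions (6.17) and without SRSF1 replicate 4 (range 1.318 to 4.963), the 3′ distance with at least 50000 tags (4.161), all tags (3.515), without control-tag regions (3.344) and with the block (4.31), and TTTT with all tags (3.417). The cause of these changes was not tested.

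Regions called with NXF1 numbered 8 of 281 with trimmed-mean scaling (5.87% of all tested regions), 52 with median-ratio scaling (14.7%), 27 with protein-coding totals (18.8%), 157 with limma-trend (37.8%), 6 of 3719 with no CPM minimum (0.277%), 23 with the replicate block (11.7%), 30 of 553 with at least 50000 tags (7.42%), 43 of 201 in the later year (20.7%), 22 of 191 without the libraries labelled SRSF2 replicates 2 and 5 (15.8%), and 6 among regions overlapping no exon. With 1 library left out they numbered 5 to 22. Without NXF1 replicates 1, 2 and 3 there were 11, 6 and 5, and leaving out SRSF5 replicate 1, SRSF5 replicate 4, SRSF7 replicate 4, SRSF2 replicate 3, SRSF4 replicate 1 or SRSF7 replicate 6 gave 20 to 22. Among SR proteins the 114 became 371 of 3719 with no CPM minimum (11.5% of all), 257 of 553 with at least 50000 tags (62.2%), 23 of 142 in the earlier year (43.5%) and 8 among regions overlapping no exon, and ran from 76 to 133 with 1 library left out. Replicate numbers did not pair libraries. Over 91 pairs of libraries with the same number the mean correlation of deviations was 0.015 and the lowest −0.413, and 8 of 31 libraries were closest to their own number. The replicate block gave 12 higher and 11 lower with NXF1. edgeR and DESeq2 were not run, because the listed tags are not plain counts. Most regions hold too few tags for a test, and differences there were not detectable at this depth.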

Other observations

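The 5′ side region of Ndufs7, high with SRSF2 and SRSF5, has its most tagged base within the 30 bases below (mm9 chr10:79711947-79711976, plus strand). They hold GGTTCGA, letters also found in the T arm of many tRNAs, which 0.0156% of 30-base windows beside splice sites have on the same strand and 0.0158% on the other. Of the 16400 regions with 10 nt on each side, 11 hold it on the same strand and 8 on the other.
Ndufs7, 5′ side: aaggttggtggttcgagcccacccagggac

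Tags in regions overlapping no exon, Wwp2 included, were compared with tags in 90073 regions deeper in introns. The share of tags near CNTC was higher in the former in 27 of 31 libraries, with a median difference of 10.7 percentage points. For TTTT it was higher in 21 of 31 (4.92 points) and for GGA in 1 of 31 (−14.6 points). Without the Wwp2 region these were 23 of 31 and 3.94 points for CNTC, 26 of 31 and 10.6 points for TTTT, and 1 of 31 and −8.94 points for GGA. SRSF3 tags deeper in introns were near CNTC for 52.8%, 50.5% and 48.3% in its 3 libraries, next to 62.8%, 54.5% and 52.4% beside splice sites without Wwp2. These are descriptions, since both kinds of region share libraries and thresholds.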
